A study of Ovis aries with 12 samples.

Results

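The genes described here encode a pair of mitochondrial amino acid-degrading machines and their regulators in the corpus luteum of sheep, the ovarian gland that secretes progesterone. They are the branched-chain α-ketoacid dehydrogenase (BCKDHA, BCKDHB, DBT and DLD) with its kinase BCKDK, its phosphatase PPM1K and the aminotransferase BCAT2 that feeds it, and the glycine cleavage system (GLDC, AMT, GCSH and again DLD). Members were taken by gene symbol, as every probe set whose annotation names that gene alone. This gave 16 probe sets of 10 genes, out of 24016 probe sets tested and 9155 genes named. PPM1K has 4 of them, GCSH, DBT and BCAT2 have 2 each and the other 6 genes have 1 each.

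The arrays came from 12 ewes in 4 groups of 3, with 1 array per ewe. The groups were pregnant ewes on day 14, non-pregnant ewes on day 14, pregnant ewes on day 12 and non-pregnant ewes on day 12. Pregnant ewes had been bred to a fertile ram, and the others were not bred and had their heat checked with a vasectomized ram, per the labels' protocols. No source used here gives breed or age. The glands were whole tissue, so fewer cells of a type and less RNA per cell cannot be told apart. Sheep RNA was read on bovine probes, so levels of different probe sets are not compared as amounts. Each value below is a log2 level, as deposited after RMA normalization, or a difference of such levels between groups.

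As background, branched-chain amino acids first lose their amino group to BCAT2, and the dehydrogenase then commits the resulting keto acids to breakdown. BCKDK phosphorylates the complex through its BCKDHA subunit and turns it off, while PPM1K, a phosphatase of the mitochondrial matrix, removes the phosphate and turns it on. The glycine cleavage system splits glycine and passes a one-carbon unit to folate: GLDC releases the carbon dioxide, GCSH carries the remaining piece on a lipoyl arm, AMT hands its carbon to tetrahydrofolate, and DLD recharges the arm. The luteal cell is rich in mitochondria, where the first step of steroid synthesis also takes place.

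PPM1K and GCSH were selected on measured log2 differences of these arrays, taken here to be those that involve day 14 non-pregnant glands. Their values in any comparison with that group are given as a description, with no p-value printed. Whether they passed there enters only the counts and the refits. Counts of members past the threshold stand beside the share of all probe sets, and nothing is read from what PPM1K and GCSH add to them. The other 8 genes came in through the complexes these 2 belong to. On the first principal component, with 29.6% of the variance, day 14 non-pregnant glands scored 18.1 to 40.4 and the remaining 9 glands -13.0 to -7.00. The 3′ minus 5′ level of the control transcripts, a measure of RNA quality, was 1.44 to 1.60 in day 14 pregnant, 1.29 to 1.43 in day 14 non-pregnant, 1.57 to 1.60 in day 12 pregnant and 1.42 to 1.47 in day 12 non-pregnant glands (log2). The 7 measured luteal steroidogenic markers lay between percentiles 86.6 and 99.8 of all probe sets by mean level over the 12 arrays. This goes with the tissue label but is not a value per group. Their summed linear signal was 19500 to 21200 in day 14 pregnant, 11500 to 16700 in day 14 non-pregnant, 20100 to 21300 in day 12 pregnant and 19400 to 20500 in day 12 non-pregnant glands. The day 14 non-pregnant group thus lay below the rest in this sum, and above them on the first component. The part of either in the results below was not tested. Replicate numbers were given here in accession order, only to name arrays. Array kind, the batch of the model, comes from the description labels, which call 4 arrays a gene array (batch A) and 8 a genome array (batch B).

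PPM1K was lowest in the glands of non-pregnant ewes on day 14 by all 4 of its probe sets. Its brightest probe set (Bt.21997.1.S1_at) read 5.99, 5.66 and 6.11 in day 14 pregnant glands, against 4.56, 5.31 and 5.09 in day 14 non-pregnant glands. The groups did not overlap, and the difference was 1.06 ± 0.16 (log2 ± standard error of the limma fit, n = 3 per group), or 2.09-fold. The dimmest (Bt.18634.1.A1_at) lay at percentile 27.8 of all probe sets by mean level. It read 4.39, 3.88 and 4.09 in day 14 pregnant glands, against 2.99, 3.40 and 3.33 in day 14 non-pregnant glands. The difference was 0.95 ± 0.16. Again every pregnant gland exceeded every non-pregnant one. The other 2 probe sets differed by 0.64 ± 0.13 (Bt.21997.2.A1_at) and 0.65 ± 0.17 (Bt.18634.2.S1_at), without overlap either. Within batch A, with 1 pregnant against 2 non-pregnant glands, the brightest was at 0.91 and the dimmest at 0.72, and within batch B, with 2 against 1, they were at 1.26 and 1.14. Over the 16 probe sets, 6 were free of overlap and higher in day 14 pregnant glands, beside 11.1% of all probe sets, and 0 were free of overlap and lower, beside 7.15%.

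**Figure D1:**
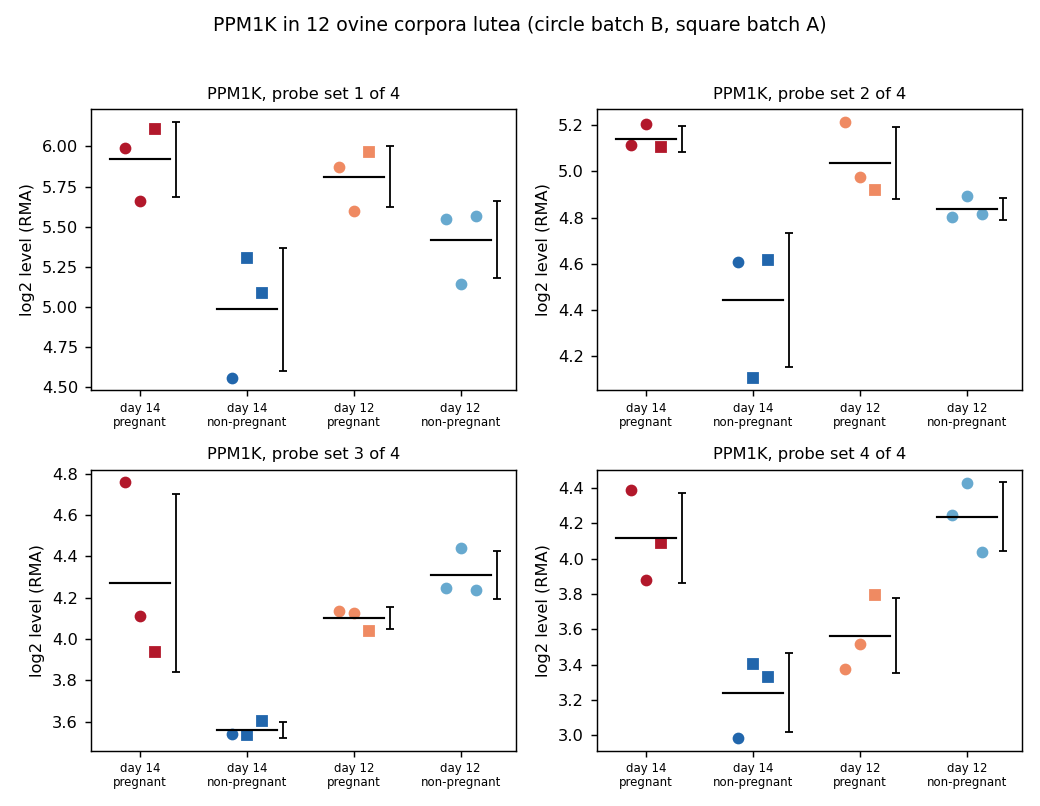
Log2 level of the 4 PPM1K probe sets, brightest first, in each of 12 glands by group, with the group mean (line) and SD (bar, n = 3). The day 14 non-pregnant glands lie lowest in mean in each panel (4.99 for the brightest and 3.24 for the dimmest probe set), whereas the day 12 groups change order between the upper and the lower panels.

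On day 12 the PPM1K probe sets did not tell one story. The brightest read 5.87, 5.60 and 5.97 in pregnant glands, against 5.55, 5.14 and 5.57 in non-pregnant glands (difference 0.26 ± 0.16, limma adjusted p = 0.74). The dimmest read 3.38, 3.52 and 3.79 in pregnant glands, against 4.25, 4.43 and 4.04 in non-pregnant glands (difference -0.75 ± 0.16, limma adjusted p = 0.297). Both pairs of groups were free of overlap, in opposite directions, and neither difference passed. Over all members on day 12, 3 were free of overlap and higher in pregnant glands, beside 8.56% of all probe sets, and 3 were free of overlap and lower, beside 7.87%. The second brightest went with the brightest (0.25 ± 0.13) and the second dimmest with the dimmest (-0.15 ± 0.17). The 2 pairs carry different cluster numbers in their names, Bt.21997 and Bt.18634.

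Between the days, the dimmest PPM1K probe set was at -1.15 ± 0.17 in day 14 minus day 12 non-pregnant glands, and the brightest at -0.69 ± 0.17. The third brightest was at -0.63 ± 0.18 and the second at -0.29 ± 0.15 in this comparison. For the brightest the groups overlapped by 1 gland each, since day 14 replicate 2 (5.31) exceeded day 12 replicate 2 (5.14). In this comparison 6 of the 16 were free of overlap and lower on day 14, beside 12.1% of all probe sets, and 0 were free of overlap and higher, beside 7.67%. Only batch B holds both groups, with 1 gland against 3, and within it the dimmest was at -1.25 and the brightest at -0.86. In pregnant ewes PPM1K was at 0.11 ± 0.15 by the brightest and 0.55 ± 0.15 by the dimmest probe set on day 14 minus day 12 (both with limma adjusted p = 0.992). The interaction, meaning the pregnancy difference on day 14 minus that on day 12, was 1.70 ± 0.23 for the dimmest and 0.80 ± 0.23 for the brightest probe set.

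The kinase that opposes PPM1K did not follow it. BCKDK read 7.18, 7.26 and 7.19 in day 14 pregnant glands, against 7.34, 7.28 and 7.23 in day 14 non-pregnant glands. The difference was -0.095 ± 0.093, with a 95% confidence interval of -0.30 to 0.11 (limma adjusted p = 0.676). On day 12 it read 7.39, 7.47 and 7.35 in pregnant glands, against 6.97, 7.13 and 7.23 in non-pregnant glands. Those groups did not overlap, and the difference of 0.31 ± 0.093 did not pass (limma adjusted p = 0.477). In pregnant ewes it was at -0.19 ± 0.089 on day 14 minus day 12 (limma adjusted p = 0.992), again without overlap. It was the 1 member free of overlap and lower there, beside 5.32% of all probe sets, and the dimmest PPM1K was the 1 free of overlap and higher, beside 4.58%. In non-pregnant ewes BCKDK was at 0.22 ± 0.10 on day 14 minus day 12 (limma adjusted p = 0.45). Its interaction of -0.41 ± 0.14 did not pass (limma adjusted p = 0.376, unadjusted p = 0.0114).

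Subtracting the BCKDK level from the brightest PPM1K level within each array gave -1.29 ± 0.27 in day 14 pregnant, -2.30 ± 0.42 in day 14 non-pregnant, -1.59 ± 0.25 in day 12 pregnant and -1.69 ± 0.28 in day 12 non-pregnant glands (log2, SD, n = 3). The absolute size of this quantity depends on the probes, and only its change between groups can be read. With the dimmest PPM1K probe set it was -3.09 ± 0.29, -4.04 ± 0.27, -3.84 ± 0.25 and -2.87 ± 0.28 in the same order of groups. The day 14 non-pregnant glands had the lowest mean by both. With the dimmest probe set they overlapped with day 12 pregnant glands, of which replicates 1 and 2 (-4.02 and -3.95) lay below day 14 non-pregnant replicates 2 and 3 (-3.88 and -3.90).

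No subunit of the dehydrogenase passed in any comparison. BCKDHA, the E1 alpha subunit that carries the regulatory phosphate, read 5.86, 5.88 and 5.92 in day 14 pregnant glands, against 5.89, 5.76 and 5.72 in day 14 non-pregnant glands. Its difference of 0.087 ± 0.10 had a 95% interval of -0.14 to 0.31 (limma adjusted p = 0.743). BCKDHB, the E1 beta subunit, read 8.20, 8.59 and 8.34 in day 14 pregnant glands, against 8.20, 7.84 and 8.40 in day 14 non-pregnant glands (0.24 ± 0.16, interval -0.11 to 0.59, limma adjusted p = 0.519). DBT, the lipoyl-bearing E2 core, was at -0.13 ± 0.10 by its brighter probe set (interval -0.35 to 0.095, limma adjusted p = 0.596), with all 12 glands between 4.63 and 5.02. Its dimmer probe set, at percentile 18.5 by mean level, was at 0.10 ± 0.14 (limma adjusted p = 0.784).

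DLD, the E3 flavoprotein that both machines share, lay between 4.18 and 4.49 over all 12 glands, at percentile 36.5 by mean level. Its difference was -0.038 ± 0.11 on day 14 (interval -0.28 to 0.20, limma adjusted p = 0.909). In day 14 minus day 12 glands of non-pregnant ewes the differences were 0.053 ± 0.11 for BCKDHA, -0.13 ± 0.18 for BCKDHB, -0.030 ± 0.11 for brighter DBT and -0.057 ± 0.12 for DLD, and none passed.

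**Figure D2:**
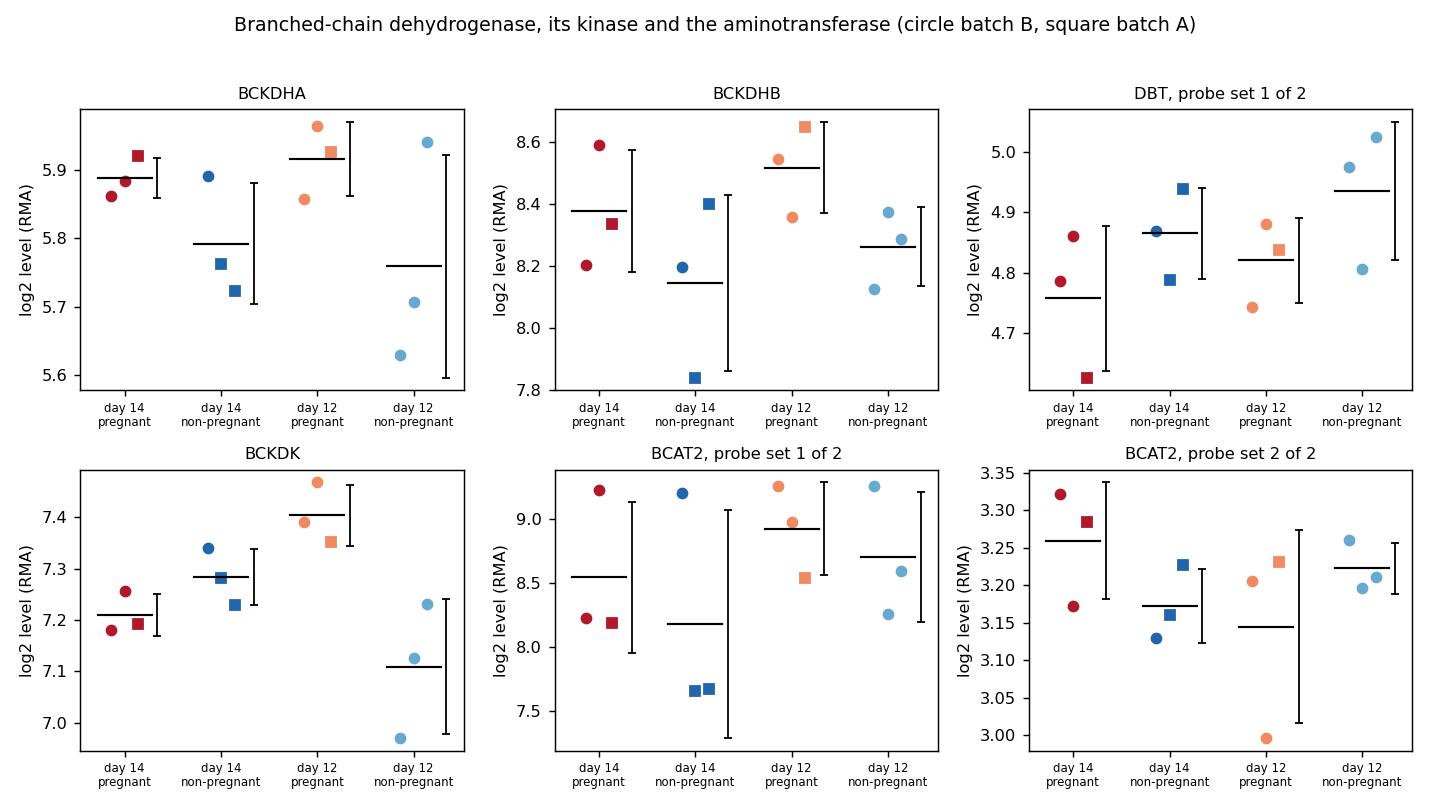
Log2 level of the BCKDHA, BCKDHB, brighter DBT, BCKDK and both BCAT2 probe sets in each of 12 glands by group, with mean (line) and SD (bar, n = 3). BCKDHA lies between 5.63 and 5.96 and BCKDK between 6.97 and 7.47 over all glands, whereas the brighter BCAT2 probe set spreads from 7.66 to 9.26 within and across groups.

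BCAT2, which starts branched-chain breakdown, was the member with the widest spread between ewes. Its brighter probe set (Bt.9004.1.S1_at) read 8.22, 9.22 and 8.18 in day 14 pregnant glands, against 9.20, 7.66 and 7.68 in day 14 non-pregnant glands. The ewes of each group thus spanned much of the range of all 12, and the difference of 0.070 ± 0.32 had an interval of -0.62 to 0.76 (limma adjusted p = 0.946). Within batch A it was 0.52 and within batch B -0.48, so the sign depended on the batch. On day 12 it read 9.25, 8.98 and 8.54 in pregnant glands, against 9.26, 8.26 and 8.59 in non-pregnant glands (0.52 ± 0.32, limma adjusted p = 0.747). The dimmer BCAT2 probe set, at percentile 19.0 by mean level, read at most 3.32 in any gland.

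GCSH, the lipoyl carrier of the glycine cleavage system, had its lowest levels in day 14 non-pregnant glands and its highest in day 12 non-pregnant glands. Its bright probe set (Bt.4195.1.S1_at) read 7.38, 7.51 and 7.39 in day 14 pregnant glands, against 6.85, 6.63 and 6.26 in day 14 non-pregnant glands. The groups were apart by 0.79 ± 0.12, or 1.73-fold, and by 0.95 among batch A glands alone and 0.60 among batch B glands alone. It read 7.41, 7.44 and 7.36 in day 12 pregnant glands, against 7.79, 7.80 and 7.65 in day 12 non-pregnant glands. These groups did not overlap either, but with pregnant glands below, at a difference of -0.28 ± 0.12 that did not pass (limma adjusted p = 0.633).

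Between the days GCSH was at -1.05 ± 0.14 in day 14 minus day 12 non-pregnant glands, and at 0.021 ± 0.12 in day 14 minus day 12 pregnant glands (interval -0.24 to 0.28, limma adjusted p = 0.998). Pregnant glands of both days lay within 7.36 to 7.51. The interaction was 1.07 ± 0.18. The other GCSH probe set, at percentile 11.9 by mean level, read between 2.56 and 3.05 in all glands and showed no such pattern (-0.063 ± 0.10 on day 14, -0.15 ± 0.11 between the days in non-pregnant ewes). RMA gives no detection call, so a probe set this dim cannot be told from one without signal.

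AMT, the aminomethyltransferase that acts on the GCSH-bound intermediate, read 6.06, 6.26 and 6.12 in day 14 pregnant glands, against 5.69, 5.33 and 5.44 in day 14 non-pregnant glands. Every pregnant gland lay above every non-pregnant one, and AMT was 1.58-fold higher (0.66 ± 0.14, limma adjusted p = 0.0428). This call is at the edge of the threshold: it held in 2 of 12 fits that left out 1 array, without day 14 non-pregnant replicate 1 or day 12 pregnant replicate 3, and the highest adjusted p among the 12 was 0.156, without day 14 pregnant replicate 3. Within batch A the difference was 0.73 and within batch B 0.46. With the pair of batch A glands of day 14 non-pregnant ewes left out, the 2 farthest from the rest on the first component, it was 0.39 (limma adjusted p = 0.33).

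In the other comparisons AMT did not pass. It was at -0.50 ± 0.15 in day 14 minus day 12 non-pregnant glands, where the day 12 glands read 5.91, 5.97 and 6.08 and did not overlap with day 14 (limma adjusted p = 0.21). It was at 0.20 ± 0.13 in day 14 minus day 12 pregnant glands (limma adjusted p = 0.992) and at -0.048 ± 0.14 between pregnant and non-pregnant glands on day 12 (limma adjusted p = 0.964), and its interaction was 0.71 ± 0.20 (limma adjusted p = 0.308). GLDC, the decarboxylase that opens the reaction, was at percentile 6.40 by mean level, with 2.13 to 2.79 over all glands. At that level neither the presence of GLDC signal nor a difference of -0.11 ± 0.13 on day 14 (limma adjusted p = 0.739) can be read as an amount.

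**Figure D3:**
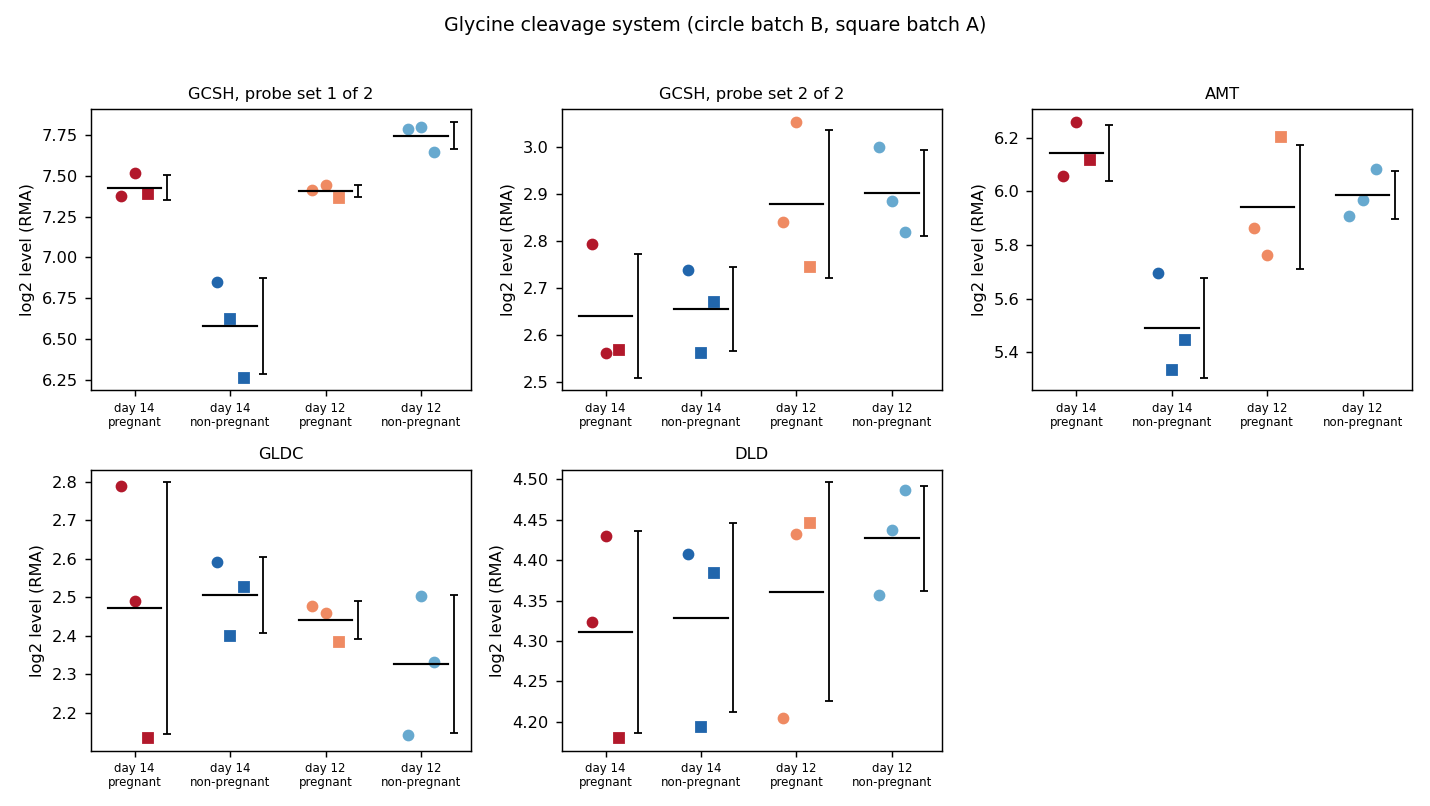
Log2 level of the GCSH, AMT, GLDC and DLD probe sets in each of 12 glands by group, with mean (line) and SD (bar, n = 3). For bright GCSH (means 7.43 and 6.58) and AMT (means 6.14 and 5.49) day 14 pregnant glands lie above day 14 non-pregnant ones without overlap, while GLDC and DLD overlap.

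Counted over all 16 probe sets, 5 passed an adjusted p of 0.05 in limma between day 14 pregnant and non-pregnant glands, and each was higher in pregnant glands: 3 of PPM1K, the bright one of GCSH, and AMT. That is 31.2% of the member probe sets, beside 1.45% of all 24016 probe sets called in the same comparison, 0.537% higher and 0.912% lower. Since PPM1K and GCSH were chosen in view of it, nothing is read from the excess. At an unadjusted p under 0.05 there were 6 (37.5%, beside 15.4%). The count was 3 without any 1 of day 14 pregnant replicates 1 and 2, day 14 non-pregnant replicate 1, day 12 pregnant replicate 2 and the 3 day 12 non-pregnant replicates. It was 1 without day 14 pregnant replicate 3, 1 with the pair of batch A glands of day 14 non-pregnant ewes left out, and 0 when only the 6 arrays compared were fitted. The spread within the day 14 non-pregnant group exceeded that of the other groups for several members (SD 0.295 for GCSH, against 0.039 to 0.084 elsewhere), so a variance pooled over groups can make its p-values too low.

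Between day 14 and day 12 non-pregnant glands 2 probe sets passed, both lower on day 14 (the dimmest PPM1K and bright GCSH), or 12.5% of the 16 beside 0.391% of all probe sets called, 0.291% higher and 0.0999% lower. At an unadjusted p under 0.05 there were 6 (37.5%, beside 11.7%). Both called probe sets belong to the selected genes, so nothing is read from this count. This count was 1 without day 14 non-pregnant replicate 1, day 12 pregnant replicate 3 or day 12 non-pregnant replicate 1 or 2. Both comparisons share the day 14 non-pregnant arrays and are not independent of each other. On day 12, 0 of the 16 passed between pregnant and non-pregnant glands in limma, as did 0% of all probe sets, with 3 members at an unadjusted p under 0.05 (18.8%, beside 7.69% of all probe sets). Between the days in pregnant ewes 0 of 16 and 0% of all passed, with 2 members at an unadjusted p under 0.05 (12.5%, beside 4.43%). The interaction passed for 1 of the 16, the dimmest PPM1K probe set (6.25%, beside 0.0874% of all, 0.025% higher and 0.0625% lower), and 6 were at an unadjusted p under 0.05 (37.5%, beside 9.42%), and nothing is read from this count either. The median difference of the 10 genes by their brightest probe sets was 0.078 on day 14, beside 0.026 over all genes, and -0.043 between the days in non-pregnant ewes, beside -0.017.

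**Figure D4:**
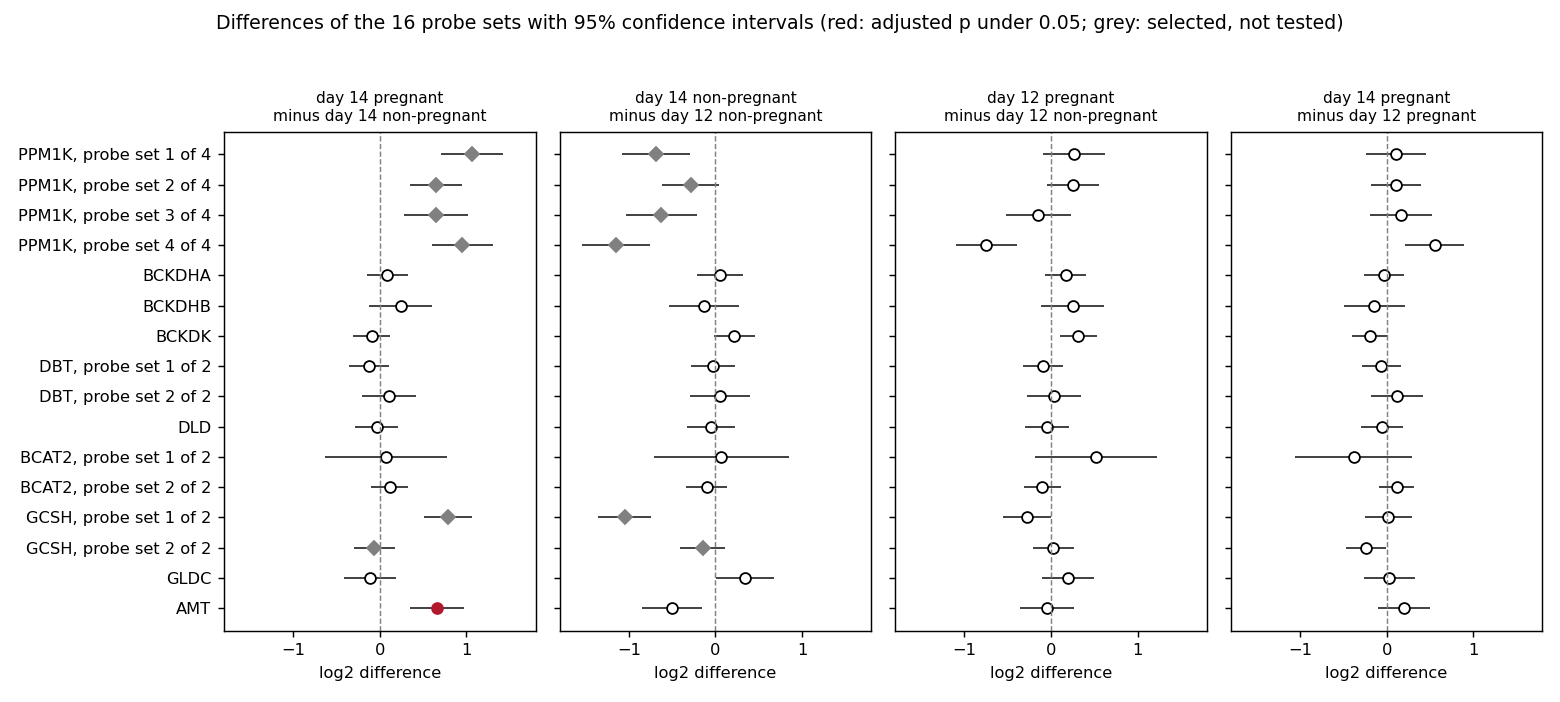
Log2 differences of the 16 probe sets in 4 comparisons (points) with 95% confidence intervals of the limma fit (lines). Red marks an adjusted p under 0.05. Grey diamonds mark PPM1K and GCSH where they were selected, so their points are not coloured by the test. PPM1K, bright GCSH and AMT lie right of 0 in the first panel (0.64 to 1.06) and left of 0 in the second (-1.15 to -0.29). Whether the intervals of the selected PPM1K and GCSH cross 0 in these panels is not read. The intervals of the BCKDH subunits, BCKDK and DLD cross 0 in both.

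The neighbouring pathways are counted here on day 14. Over all probe sets 1.45% passed there in limma and 15.4% were at an unadjusted p under 0.05. Nothing is read from the small counts of these lists. The genes named below that did not pass were picked after their values were seen. Of 19 measured genes that act on branched-chain carbon beside or after the dehydrogenase, such as IVD of leucine breakdown and MMUT, the methylmalonyl-CoA mutase, 0 passed on day 14 in limma (1 at an unadjusted p under 0.05), with a median difference of 0.0031. IVD was at 0.26 there (adjusted p = 0.269). Of 13 genes for lipoate attachment and for the sister complexes of pyruvate and 2-oxoglutarate, 0 passed (2 at an unadjusted p under 0.05), with a median of -0.031. Among them PDP1, the phosphatase that activates pyruvate dehydrogenase as PPM1K does the branched-chain complex, was at -0.76 ± 0.23, the opposite sign to PPM1K (adjusted p = 0.133).

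Of 7 other phosphatases of the PPM family and its relatives, 0 passed in limma on day 14 (1 at an unadjusted p under 0.05), with a median of 0.0030. PPM1D, a p53-induced nuclear phosphatase, was at -0.76 ± 0.25 (adjusted p = 0.173). Of 16 markers of mitochondrial mass, such as citrate synthase and respiratory chain subunits, 0 passed (1 at an unadjusted p under 0.05), with a median of -0.042. Their summed linear signal was 16700 to 17900 in day 14 pregnant glands, against 16400 to 18100 in day 14 non-pregnant glands, which overlap.

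Among 19 genes of glycine, serine and one-carbon metabolism 1 passed on day 14. PSPH, which makes serine as the last step of its synthesis, read 7.14, 7.14 and 6.97 in day 14 pregnant glands, against 7.88, 7.50 and 7.91 in day 14 non-pregnant glands. It was lower in pregnant glands (difference -0.75 ± 0.16, limma adjusted p = 0.0428), opposite in sign to GCSH and AMT, and passed in 4 of 12 fits that left out 1 array. It did not pass without any 1 of the 3 day 14 pregnant replicates, day 14 non-pregnant replicate 1 or 3, day 12 pregnant replicate 3 or day 12 non-pregnant replicate 1 or 3, nor without a batch term, with batch as a random block, with only the 6 arrays compared or without the pair of batch A day 14 non-pregnant glands. SHMT2, the mitochondrial serine and glycine converter, was at -0.14 ± 0.20 (adjusted p = 0.797). In the other 4 contrasts 0 genes of these 5 lists passed in limma, where at most 0.391% of all probe sets passed.

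**Figure D5:**
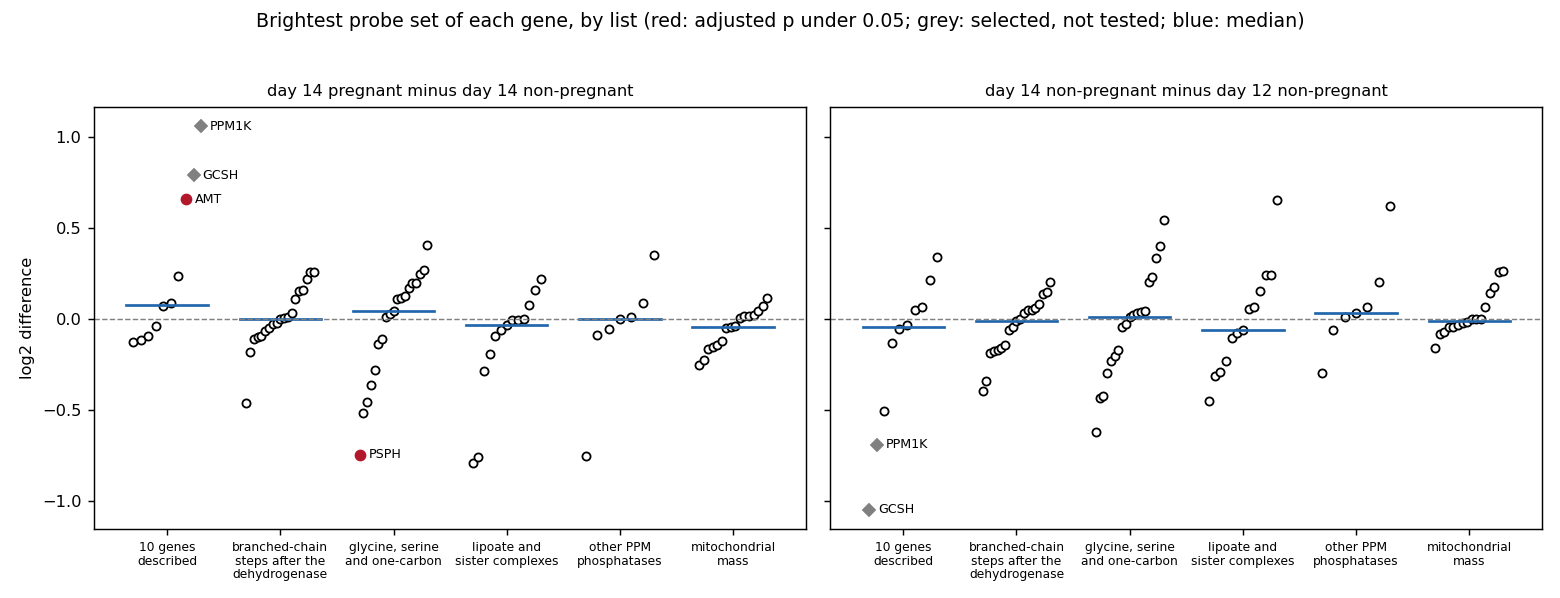
Log2 difference of the brightest probe set of each gene (points) by list, with the list median (line). The 2 comparisons shown hold the day 14 non-pregnant glands. Red marks a limma adjusted p under 0.05. Grey diamonds mark the selected PPM1K and GCSH, whose points are not coloured by the test. On day 14 PPM1K, GCSH and AMT (1.06, 0.79 and 0.66) lie above 0 and PSPH (-0.75) below it, while the medians of the 5 neighbouring lists lie between -0.042 and 0.047.

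Other cell types of the gland were read from their markers. On day 14, of 7 endothelial markers TIE1 and CD34 passed, higher in pregnant glands. Of these 7 markers 4 were above 0, with a median of 0.075. Of 6 smooth muscle and pericyte markers CNN1 passed, lower in pregnant glands (-1.54, limma adjusted p = 0.000974), and 3 were above 0. MYH11 (0.72) and DES (0.51) were above 0 at an unadjusted limma p under 0.05. None of 6 fibroblast, 5 macrophage, 6 T and NK cell and 3 red blood cell markers passed in limma, with 4 of the macrophage markers and 0 of the rest at an unadjusted p under 0.05. Of those 4, CD68 (-0.63), CD14 (-0.44) and MSR1 (-0.50) were below 0 in pregnant minus non-pregnant glands and CSF1R (0.47) above it. The summed macrophage signal was 682 to 1110 in day 14 pregnant glands, against 696 to 1420 in day 14 non-pregnant glands, and the endothelial sum 2010 to 2260 against 1670 to 2670, both with overlap. The T and NK cell sum was 239 to 296 in day 14 pregnant glands, against 235 to 275 in day 14 non-pregnant glands. Of the luteal steroidogenic markers 1 of 7 passed, STAR, higher in pregnant glands, with 6 of 7 differences above 0 and a median of 0.43. In day 14 minus day 12 non-pregnant glands CNN1 was higher (1.38, limma adjusted p = 0.00525), and its interaction was -1.43 (limma adjusted p = 0.0456). Of the 6 smooth muscle and pericyte markers 2 were above 0 between these days, and 4 in the interaction. No other marker passed in these contrasts. At an unadjusted limma p under 0.05 between the days in non-pregnant ewes, 3 of the 7 steroidogenic markers were below 0. So were the fibroblast genes COL1A1 (-0.92), COL1A2 (-0.44) and COL3A1 (-0.41), while DCN (-0.080), LUM (0.032) and PDGFRA (-0.090) were not at that p. Of the 7 endothelial markers TIE1 (-0.35) and CD34 (-0.59) were below 0 at that p and PECAM1 (0.76) above it. MYH11 of smooth muscle (-0.55) was below 0 at that p too. No macrophage, T and NK cell or red blood cell marker was at that p. Over all probe sets 11.7% were at that p. The part of these markers in the PPM1K, GCSH and AMT values was not tested.

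The genes most like PPM1K and GCSH over the 12 arrays were different ones. By Pearson correlation of log2 levels over 12 arrays, among 9027 other genes by their brightest probe set, the closest to PPM1K were ATF7, a transcription factor (r = 0.943), RNF4, a ubiquitin ligase (0.891), and CALHM2, a membrane channel protein (0.885). The closest to GCSH were AURKB, a mitotic kinase (0.929), BCL2L2, an anti-apoptotic protein (0.924), and GGACT, a cyclotransferase (0.921). AMT ranked 245th for GCSH (0.769) and 452nd for PPM1K (0.605), and the correlation of PPM1K with GCSH was 0.46. These values describe 12 arrays that share 4 groups, of which day 14 non-pregnant stands apart.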

How the data were processed

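Log2 values of 24128 probe sets in 12 arrays were used as deposited, made by the authors with RMA. The submitters' processing notes name RMA and Affymetrix Expression Console; the version is not given in the sources used here. This method brings all arrays to one distribution and gives 1 log2 value per probe set. Groups came from the source label; titles conflict with it for 9 arrays and were not used. After 112 control probe sets were left out, 24016 were fitted with limma 3.58.1 in R 4.3.3, as group means plus an array batch (7 residual and 4.391 prior degrees of freedom). Tests were two-sided and Benjamini-Hochberg adjusted over all probe sets, with a threshold of 0.05. Confidence intervals are 95% intervals of that fit. The fit was also run on simulated data, in which all groups shared the same spread for a probe set. That run therefore does not cover the wider spread of the day 14 non-pregnant group.

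Symbols came from GEO's bovine annotation, which can be old. All probe sets of the 10 genes are named; a gene is led by its brightest one, and of the pathway lists the genes that passed are named, with a few members as values. The members and lists were chosen with earlier results of these data known. The number of arrays limits the precision.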

Additional observations from a re-analysis of the deposited data

Results flagged for a closer look

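For 3 probe sets of the selected genes the pregnancy difference ran in opposite directions on the 2 days, without overlap of the groups on either. The share of all probe sets with this pattern was not counted, so nothing is read from this number. By single days, 11.1% of all probe sets were free of overlap and higher in day 14 pregnant glands, and 7.87% lower in day 12 pregnant glands. The other genes were flagged by another rule, an interaction past the threshold, which none of them met. No test of the difference between the days is read here for PPM1K and GCSH. They were selected on values that include the day 14 non-pregnant glands. For the dimmest PPM1K probe set (Bt.18634.1.A1_at, percentile 27.8 by mean level) the day 14 minus the day 12 difference was 1.70 (log2). On day 14 pregnant glands averaged 4.12 and non-pregnant glands 3.24, and on day 12 pregnant glands averaged 3.56 and non-pregnant glands 4.24. For the third brightest PPM1K probe set (Bt.18634.2.S1_at, percentile 32.0 by mean level) it was 0.79. The bright GCSH probe set had 1.07, with means of 7.43 in pregnant and 6.58 in non-pregnant glands on day 14, and of 7.41 in pregnant and 7.75 in non-pregnant glands on day 12. Both brighter PPM1K probe sets were higher in pregnant glands on both days without overlap.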

How the results depend on the processing

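None of the refitted differences of PPM1K, GCSH, AMT and PSPH changed sign. The day 14 count of 5 member probe sets was 0 with only the 6 arrays compared, 1 with the pair of batch A glands of day 14 non-pregnant ewes left out (chosen after seeing the data), and 1 to 4 over the leave-outs of 1 array. The count of 2 between the days in non-pregnant ewes was 0 with only the arrays compared, 1 without dim probe sets and 1 to 3 over the leave-outs. For the interaction, the count of 1 was 2 without a batch term, 2 with batch as a random block, 0 without dim probe sets, 2 without that pair and 0 to 2 over the leave-outs. The 2 counts of 0 stayed at 0 in all settings run. The brightest PPM1K, dimmest PPM1K and GCSH differences on day 14 each stayed past the threshold in 11 of 12 leave-outs, which supports nothing since these values were selected, and not without day 14 pregnant replicate 3, day 14 non-pregnant replicate 1 and day 14 pregnant replicate 3, in that order. The 9 probe sets of the other 7 genes had 0 calls in limma in any of the 19 settings. Over all probe sets the day 14 count was 348, against 531 without a batch term and 24 with only the arrays compared; between the days in non-pregnant ewes it was 94, 415 and 1. The cause of these shifts was not tested. The fit with only the arrays compared also rests on fewer arrays, whereas the fit without a batch term uses all 12. The filter removed 5 of the 16 probe sets, among them the dimmest PPM1K one. No paired analysis was made, because each array came from a different ewe. The labels give no replicate numbers, and those used here, in accession order, pair no arrays.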
